A study of Rattus norvegicus with 12 samples.

Results

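The genes described here carry out and restrain the mitochondrial (intrinsic) pathway of apoptosis: Bcl2, Bcl2l1, Mcl1, Bax, Bak1, Bad and Bid of the BCL2 family, and Casp9 and Apaf1 of the apoptosome. They were taken by symbol from the gene table, and all 9 were found among its 26949 genes. The libraries were made from the hippocampus of male rats that spent 4 weeks under chronic intermittent hypoxia (CIH), in which oxygen falls and recovers over and over as in sleep apnoea, or 4 weeks in normoxia (control). Each group had 3 RNA libraries and 3 small RNA libraries. The sources used here give neither strain, age and oxygen levels nor whether each library came from its own animal. P-values below therefore rest on the spread between libraries, which may be technical.

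In this pathway BAX and BAK, once active, open the outer mitochondrial membrane and let cytochrome c out. BCL2, BCL-xL (the main product of Bcl2l1) and MCL1 hold them back, and the BH3-only proteins BAD and BID shift that balance towards death. Released cytochrome c binds APAF1, and the resulting apoptosome activates caspase-9, which starts the caspase cascade. Most of this control works through binding, cleavage and phosphorylation of proteins, which RNA levels do not show. In the adult brain BCL-xL is the chief survival member of the family in neurons.

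Each RNA library held 17170943 to 21941173 estimated counts and each small RNA library 4681163 to 4914232 counts. Libraries differed from each other beyond sampling noise, with a chi-square per degree of freedom of at least 6.97, and the closest pair was CIH replicate 3 and control replicate 1. The 8 markers of hippocampal pyramidal neurons, of which 0 were at 0 in all libraries, summed to 1657, 3419 and 3043 TPM (transcript abundance scaled for length and library size) in CIH replicates 1 to 3, against 2810, 2369 and 2746 TPM in control replicates 1 to 3. CIH replicate 1 stood apart: its 8 dentate granule markers summed to 92.7 TPM, against 202 and 347 TPM in the other CIH libraries and 197 to 399 TPM in control. Oligodendrocyte markers also varied, summing to 7189, 7695 and 10403 TPM in CIH replicates 1 to 3, against 11234, 4273 and 4023 TPM in control replicates 1 to 3. In tissue of this kind, fewer cells of a type and less RNA per cell cannot be told apart.

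All 9 members passed the filter on low counts, and none passed the test for a difference between CIH and control. In edgeR's quasi-likelihood test with Benjamini-Hochberg adjustment the adjusted p was 1.00 for each of the 9, as 0% of the 17935 genes tested passed. At an unadjusted p under 0.05 there were 0 of 9 members, against 1.78% of all genes tested. DESeq2 and limma on log2 TPM also called 0 members. The median log2 fold change (CIH over control) was 0.03 over the members and 0.0028 over all genes tested, with 6 members above 0 and 3 below. On the scale of CPM, counts scaled to library size with TMM factors, the CIH libraries lay above every control library for 2 members, Bak1 and Bcl2l1, against 3.05% of all genes tested. They lay below every control for 0 members, against 2.65% of all genes tested, and in either direction 5.7% of all genes did not overlap.

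**Figure D1:**
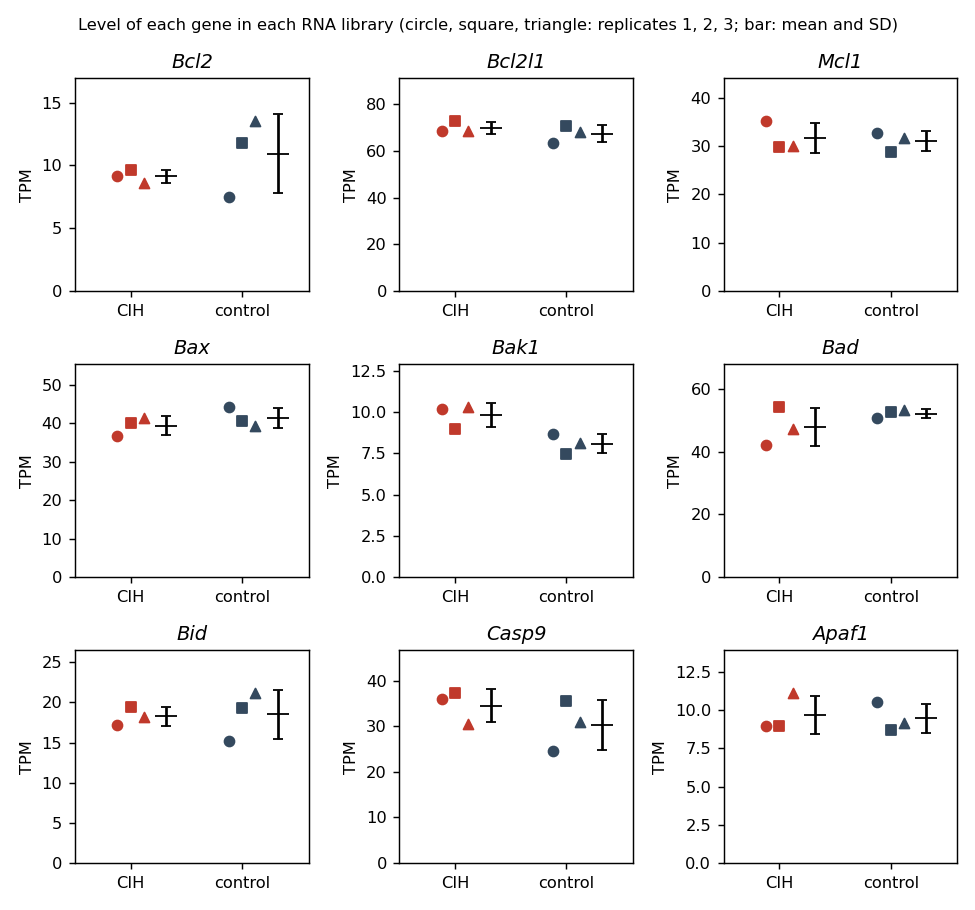
Level of each member in TPM (y axis, from 0) in the 3 CIH and 3 control RNA libraries; circles, squares and triangles are replicates 1, 2 and 3, and the bar gives the mean and SD. The CIH points lie above all control points for Bak1, while the groups overlap for the other 8 genes.

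The 9 genes spanned a wide range of levels. In TPM, which is per transcript length, Bcl2l1 was the highest at 68.6 over the 6 libraries, and it lay above every other member in each library. Bad followed at 50.1 TPM, Bax at 40.4 TPM, Casp9 at 32.4 TPM and Mcl1 at 31.4 TPM. Bid stood at 18.4 TPM, and Bcl2, Apaf1 and Bak1 were the lowest at 10.0, 9.57 and 8.97 TPM. Neighbours in this order had overlapping ranges except for Bcl2l1 over Bad, Mcl1 over Bid and Bid over Bcl2. Casp9 exceeded Mcl1, Bcl2 exceeded Apaf1 and Apaf1 exceeded Bak1 in 4 of 6 libraries each, so these neighbours had no fixed order. Levels per length rest on the lengths in the authors' annotation: the effective length implied by the table was a median of 604 bases for Bax and 5960 bases for Apaf1.

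Among the anti-apoptotic genes, Bcl2l1, which encodes BCL-xL, was apart between the groups in CPM and not in TPM. It had 164.8, 154.2 and 156.2 CPM in CIH replicates 1 to 3, against 140.0, 147.0 and 140.7 CPM in control replicates 1 to 3. Every CIH library was above every control on that scale. The means were 158.4 ± 5.61 CPM in CIH and 142.6 ± 3.83 CPM in control (SD, n = 3 each), and the log2 fold change was 0.15 (SE 0.09). That is a change of 11.1%, with a 95% interval from -4.41% to 29.1%, and it did not pass the edgeR test (adjusted p = 1.00; unadjusted p = 0.141). In TPM the same gene had 68.4, 72.8 and 68.5 in CIH, against 63.4, 70.7 and 68.0 in control. Here the groups overlapped, and limma on log2(TPM + 1) gave a log2 fold change of 0.05. Without CIH replicate 1, the library with the highest CPM, the edgeR value was 0.12. Reads of the pseudogene Rps2-ps43, which RefSeq places inside Bcl2l1, were not separated here.

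CPM and TPM differ by the TMM factors, which only CPM uses, by the effective length, and by the scaling of each library to a fixed TPM total. The TMM factor was 1.04 in CIH replicate 1, 0.962 in CIH replicate 2 and 1.018 in control replicate 2. As counts over library total, without this factor, the groups overlapped for Bcl2l1. CIH replicate 2, with 3253 of 21941173 counts, lay below control replicate 2, with 2946 of 19713519. The separation in CPM thus holds only with the TMM factors, and a fit without such factors was not run. For Bcl2l1 the effective length was not the same in every library. It was 4511, 3848 and 4277 bases in CIH replicates 1 to 3, against 4076, 3843 and 3909 bases in control replicates 1 to 3. These lengths overlapped between the groups, and the longest, 4511 bases, was in CIH replicate 1. In RSEM such a length is averaged over the isoforms of a gene, which the gene table does not list, so BCL-xL and the shorter, pro-apoptotic BCL-xS were not analysed here. Of the other members, Bad ranged most in relative terms, from 863 bases in control replicate 1 to 987 bases in CIH replicate 1, while Casp9 stayed between 2117 and 2130 bases.

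**Figure D2:**
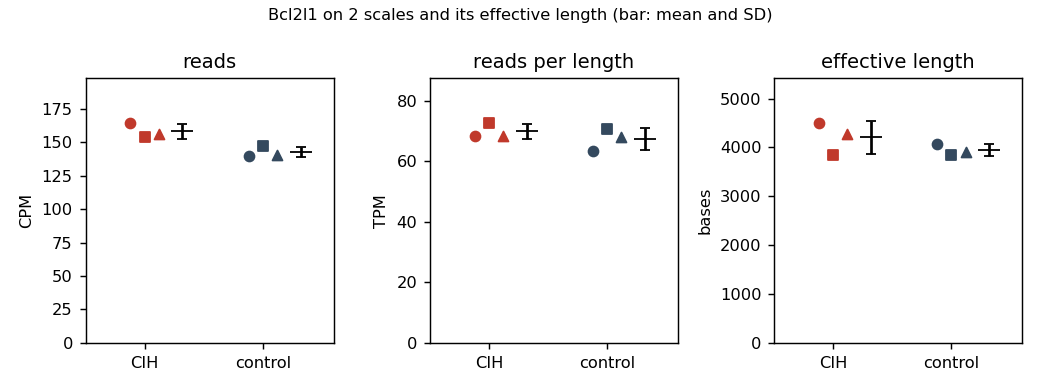
Bcl2l1 in CPM, in TPM and as effective length in bases (y axes, from 0) in the 3 CIH and 3 control libraries; markers are replicates 1, 2 and 3 and the bar is the mean and SD. The groups are apart in CPM (154.2 to 164.8 in CIH, 140.0 to 147.0 in control) and overlap in TPM and in length.

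Bcl2 itself, the founding member of the family, was the most variable of the 9. It had 9.19, 9.64 and 8.61 TPM in CIH replicates 1 to 3, against 7.45, 11.8 and 13.6 TPM in control replicates 1 to 3. The CIH libraries lay together inside the wider range of the controls, of which replicate 1 was the lowest of all. The mean was 9.15 ± 0.516 TPM in CIH and 10.9 ± 3.14 TPM in control (SD, n = 3 each). The log2 fold change was -0.26 (SE 0.24; edgeR adjusted p = 1.00), with an interval from -43.5% to 23.2%. This value depended on single libraries: it was -0.46 without control replicate 1 (edgeR unadjusted p = 0.0424; adjusted p = 0.903) and -0.10 without control replicate 3. Control replicate 1 also held the highest summed oligodendrocyte (11234 TPM) and dentate (399 TPM) marker levels, whose part in the value was not tested. Reads for Bcl2 were few, at 89 to 166 counts per library.

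Mcl1, which encodes a short-lived protein that restrains BAK in particular, had 35.25, 29.79 and 30 TPM in CIH, against 32.66, 28.71 and 31.81 TPM in control. The groups overlapped, and the highest value was in CIH replicate 1. Its log2 fold change was 0.03 (SE 0.12; edgeR adjusted p = 1.00), with an interval from -16.3% to 25.02%. Without CIH replicate 1 it turned to -0.05, and without control replicate 2 to -0.02.

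The effector genes Bax and Bak1 encode the pore-forming proteins. Bak1 had the smallest p of the 9 and was the member with the largest positive fold change. It stood at 10.2, 8.97 and 10.3 TPM in CIH, against 8.66, 7.48 and 8.15 TPM in control. Each CIH library was above each control, though the lowest CIH value, 8.97 in replicate 2, was close to the highest control value, 8.66 in replicate 1. The mean was 9.84 ± 0.755 TPM in CIH and 8.10 ± 0.592 TPM in control (SD, n = 3 each), and the log2 fold change was 0.29 (SE 0.14). That change of 22.2% had an interval from -2.40% to 52.9%, and it did not pass the edgeR test (adjusted p = 1.00; unadjusted p = 0.0728). By p it ranked 506 of 17935 genes. Over the libraries left out in turn it ran from 0.24 to 0.34, and it was 0.26 without CIH replicate 1. The counts behind it were 175, 187 and 193 in CIH and 167, 145 and 167 in control. In mouse, neurons make a splice form of Bak1 of their own, which a gene total does not separate. RefSeq also places 1 long noncoding gene over Bak1 and 2 over Bcl2, and with no stated strand setting their reads may be mixed with those of the members.

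Bax, whose protein moves from the cytosol to mitochondria when active, differed by less than its spread. It had 36.7, 40.2 and 41.4 TPM in CIH, against 44.3, 40.6 and 39.4 TPM in control. The groups overlapped, with the lowest value in CIH replicate 1 and the highest in control replicate 1. The log2 fold change was -0.08 (SE 0.13; edgeR adjusted p = 1.00), with an interval from -23.2% to 16.7%. It was -0.015 without control replicate 1 and -0.12 without control replicate 3.

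**Figure D3:**
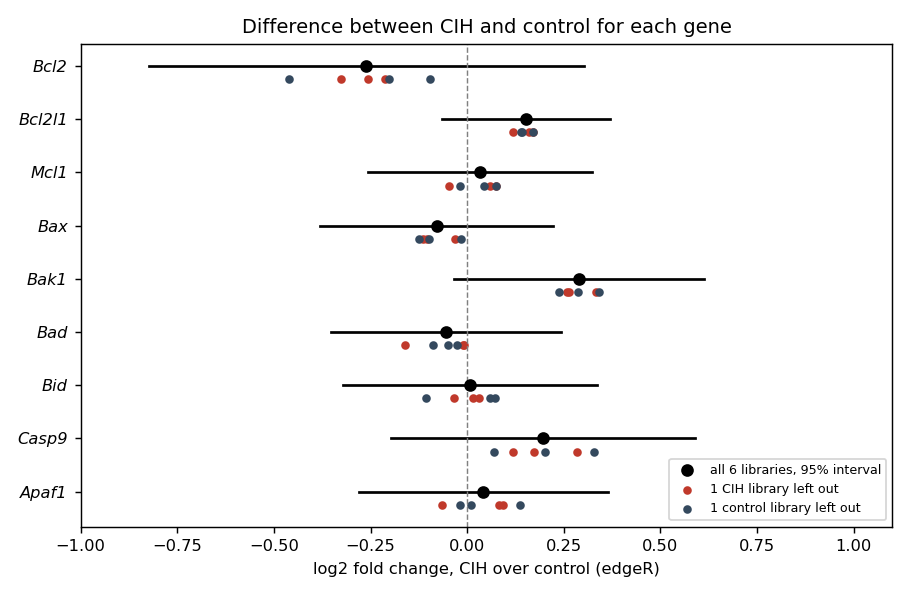
Log2 fold change of CIH over control from edgeR (x axis) for the 9 genes (y axis); black points and lines are the estimate and 95% interval from all 6 libraries, red and dark blue points the estimates with 1 CIH or 1 control library left out. Every interval includes 0; Bak1 stays between 0.24 and 0.34 when a library is left out, and Bcl2 runs from -0.46 to -0.10.

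The BH3-only genes gave no separation of the groups. Bad, whose protein binds BCL2 and BCL-xL when it is not phosphorylated, had 42.1, 54.4 and 47.2 TPM in CIH, against 50.7, 52.7 and 53.4 TPM in control. CIH replicate 1 was the lowest and CIH replicate 2 the highest of the 6 libraries. The log2 fold change was -0.05 (SE 0.13; edgeR adjusted p = 1.00). It was -0.16 without CIH replicate 2 and -0.007 without CIH replicate 1, and limma on log2(TPM + 1) gave -0.13. Bid, whose protein is cut by caspase-8 and then carries a death receptor signal to mitochondria, had 17.2, 19.5 and 18.2 TPM in CIH, against 15.2, 19.3 and 21.2 TPM in control. The lowest and the highest values were both in control. Its log2 fold change was 0.01 (SE 0.14; edgeR adjusted p = 1.00), with an interval from -20.0% to 26.1%. It turned to -0.11 without control replicate 1 and to -0.03 without CIH replicate 2.

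The apoptosome genes were Casp9, the initiator caspase, and Apaf1, its scaffold. Casp9 had 35.9, 37.3 and 30.4 TPM in CIH, against 24.5, 35.4 and 30.9 TPM in control. The groups overlapped, and control replicate 1 alone lay below the rest of the libraries. The log2 fold change of Casp9 was 0.20 (SE 0.17; edgeR adjusted p = 1.00), with an interval from -12.7% to 50.4%. It was 0.07 without control replicate 1 and 0.33 without control replicate 2. Apaf1 had 8.97, 8.94 and 11.1 TPM in CIH, against 10.5, 8.67 and 9.16 TPM in control. Its highest value was in CIH replicate 3 and its next in control replicate 1. The log2 fold change of Apaf1 was 0.04 (SE 0.14; edgeR adjusted p = 1.00), with an interval from -17.7% to 28.7%. It turned to -0.06 without CIH replicate 3 and to -0.02 without control replicate 2.

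Control replicate 1 was the lowest library in CPM for 4 of the 9 members, and control replicate 2 for 3. CIH replicate 1 was the highest for 3 members and the lowest for 2, while CIH replicate 3 and control replicate 3 were the lowest for 0. Members did not vary as 1 group: over the 6 libraries, in which the members share depth and tissue make-up, the Pearson correlation of log2 CPM between 2 members ran from -0.74 (Bcl2 and Apaf1) to 0.86 (Bcl2 and Bid). The mean standardised log2 CPM of the 9 was 0.09, 0.37 and 0.02 in CIH replicates 1 to 3, against -0.34, -0.07 and -0.06 in control replicates 1 to 3. The genes most like that profile among 11146 genes with a mean log2 CPM above 3 were LOC102555246 (r = 0.99), Gstz1 (r = 0.98) and Cd320 (r = 0.98), each over the same 6 libraries. With so many genes and so few libraries some values of r this high are to be expected, so these names only describe the ranking. The biological coefficient of variation, a measure of residual spread, had a median of 15.7% over the members and 20.2% over all genes tested. It was 23.8% for Bcl2 and 12.3% for Bcl2l1. The genes tested include some with fewer reads than any member, such as Casp6, and genes of like abundance were not compared.

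The balance of restraining to effector genes was taken as a ratio of TPM within each library. The ratio of Mcl1 to Bak1 was 3.45, 3.32 and 2.90 in CIH replicates 1 to 3, against 3.77, 3.84 and 3.90 in control replicates 1 to 3. All 3 CIH libraries were below all 3 controls, with a mean of 3.22 ± 0.285 in CIH and 3.84 ± 0.0659 in control (SD, n = 3 each). The mean log2 ratio differed by -0.25 (CIH minus control; two-sided exact permutation p = 0.1, the smallest that 3 libraries against 3 can give; adjusted p = 0.300 over 3 ratios). Bak1 is the lower term of this ratio, so its own difference enters here again. The ratio of Bcl2 to Bax was 0.251, 0.240 and 0.208 in CIH, against 0.168, 0.290 and 0.344 in control. The controls lay on both sides of the CIH libraries, and the log2 difference was -0.14 (exact permutation p = 0.800; adjusted p = 0.800). Without control replicate 1 it was -0.44, and without control replicate 3 it turned to 0.07. The ratio of Bcl2l1 to Bax was 1.87, 1.81 and 1.66 in CIH, against 1.43, 1.74 and 1.73 in control. These overlapped, with a log2 difference of 0.13 (exact permutation p = 0.400; adjusted p = 0.600). On estimated counts, not per length, this ratio was 13.9, 11.5 and 11.9 in CIH, against 9.55, 11.12 and 11.12 in control. There the groups were apart, with a log2 difference of 0.23 (exact permutation p = 0.1, unadjusted). In TPM the difference was 0.034 without control replicate 1. Summed, Bcl2, Bcl2l1 and Mcl1 held 2.41, 2.28 and 2.07 times the TPM of Bax and Bak1 in CIH, against 1.95, 2.31 and 2.39 times in control.

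**Figure D4:**
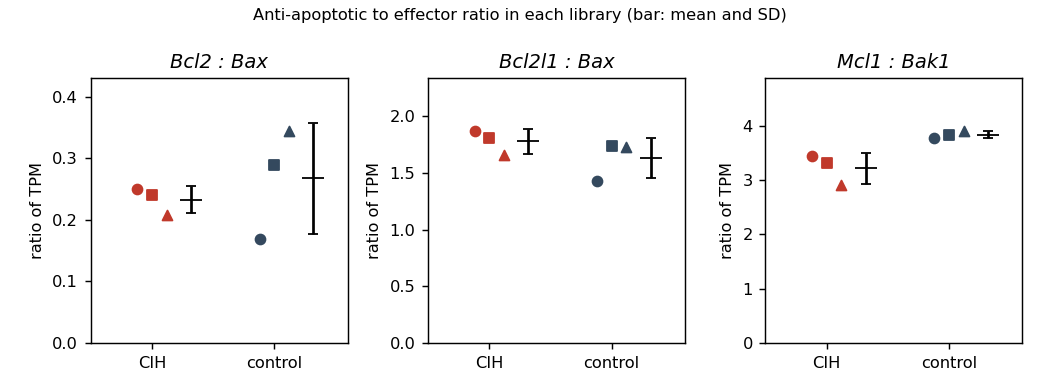
Ratio of TPM within a library (y axis, from 0) for Bcl2 to Bax, Bcl2l1 to Bax and Mcl1 to Bak1 in the 3 CIH and 3 control libraries; markers are replicates 1, 2 and 3 and the bar is the mean and SD. Only the ratio of Mcl1 to Bak1 separates the groups, at 2.90 to 3.45 in CIH and 3.77 to 3.90 in control.

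Promoter windows of 250 bases before to 50 bases after the start were read from RefSeq (build GRCr8) for 8 of the 9 members; Bcl2l1 has several starts, giving 11 windows. The windows were searched on both strands for ACGTG or GCGTG, the core of the hypoxia response element that HIF binds. The search found a core in 6 of 11 windows, where 41.6% of all 33465 promoter windows hold one. Casp9 and Apaf1 each had 5 cores, Bad and Bcl2 had 1 each, Bcl2l1 had 1 in each of 2 windows, and Bak1, Mcl1 and Bid had 0. Both forms of the core contain CG, a pair found 24 times in the Casp9 window and 43 times in that of Apaf1. The median was 7 over all windows, and core counts were not compared among windows of like CG content. The GC box GGGCGG, on either strand, was in 6 of the 11 windows and in 33.1% of all windows, and a p53 half-site was in 0 of them, against 7.98% of all windows. The cores in capitals are a description of these letters and not of binding. The windows of Bak1 and of the most upstream Bcl2l1 start are given because these genes were apart between the groups in CPM. That of Casp9 is given as an example of a window with 5 cores, and that of Apaf1, which also had 5, is not shown. The printed windows lie on the minus strand at chr20:5110925-5111224 for Bak1 and chr3:161764726-161765025 for Bcl2l1. The Casp9 window lies on the plus strand at chr5:159391824-159392123.
Bak1: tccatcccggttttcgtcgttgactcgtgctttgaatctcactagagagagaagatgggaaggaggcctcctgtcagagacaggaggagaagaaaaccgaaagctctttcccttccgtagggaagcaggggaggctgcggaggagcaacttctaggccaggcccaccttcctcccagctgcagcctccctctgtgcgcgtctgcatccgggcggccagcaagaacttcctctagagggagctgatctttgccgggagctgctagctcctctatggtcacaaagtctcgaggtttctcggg
Bcl2l1: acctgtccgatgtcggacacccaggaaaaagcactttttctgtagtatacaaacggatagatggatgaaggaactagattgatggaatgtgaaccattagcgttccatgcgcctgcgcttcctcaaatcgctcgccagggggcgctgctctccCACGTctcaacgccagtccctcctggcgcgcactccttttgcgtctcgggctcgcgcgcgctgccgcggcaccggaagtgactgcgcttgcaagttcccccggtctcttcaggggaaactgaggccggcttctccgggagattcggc
Casp9: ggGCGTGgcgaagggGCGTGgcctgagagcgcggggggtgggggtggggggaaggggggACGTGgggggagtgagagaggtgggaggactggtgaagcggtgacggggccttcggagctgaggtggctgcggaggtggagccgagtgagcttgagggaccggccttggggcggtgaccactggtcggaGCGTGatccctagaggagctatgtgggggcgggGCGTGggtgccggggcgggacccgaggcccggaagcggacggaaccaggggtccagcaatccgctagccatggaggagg

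The pathway around the members was read from a list of 48 further genes, of which 42 were expressed enough to test. None of the 42 passed the edgeR test (0 higher and 0 lower), 0 had an unadjusted p under 0.05, and DESeq2 and limma called 0. Their median log2 fold change was -0.0036, with 21 above 0 and 21 below, and in CPM the CIH libraries lay above every control for 1 (Birc2) and below for 1 (Fadd). In TPM the groups overlapped for Birc2 and were apart for Fadd. Birc2 also overlapped as counts over library total, without TMM factors. It had 532 of 21941173 counts in CIH replicate 2 and 488 of 19713519 in control replicate 2, which was the higher share. For all genes tested the shares above and below every control in CPM were 3.05% and 2.65%.

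Close to the BCL2 members, the survival gene Bcl2l2 stood at 99.0 ± 14.9 TPM in CIH and 97.1 ± 22.5 TPM in control (SD, n = 3 each), a level above that of Bcl2l1, with a log2 fold change of 0.03 (SE 0.20). The BAX relative Bok had a log2 fold change of 0.09 (SE 0.42). Of 8 further BH3-only and related genes 7 were tested, with 4 above 0 and 3 below. Hrk, a BH3-only gene of neurons, was at 13.9 ± 1.54 TPM in CIH and 19.1 ± 6.28 TPM in control, a log2 fold change of -0.36 (SE 0.22). That of Hrk was -0.57 without control replicate 1 (edgeR unadjusted p = 0.00539; adjusted p = 0.733) and -0.22 without control replicate 2. Pmaip1, which encodes the MCL1-binding protein NOXA, was at 7.81 ± 1.68 TPM in CIH and 5.09 ± 3.24 TPM in control, a log2 fold change of 0.47 (SE 0.33) that was 0.11 without CIH replicate 1. In the edgeR test all 4 had an adjusted p of 1.00 and did not pass.

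Genes of the proteins released from mitochondria and of the VDAC channels had a log2 fold change below 0 in 7 of 8 cases, with a median of -0.10, where 8859 of the 17935 genes tested were below 0. The 8 share the same libraries and are not independent, and 0 of them had an unadjusted p under 0.05. Cycs, which encodes cytochrome c, the partner of APAF1, was at 129 ± 18.7 TPM in CIH and 149 ± 20.4 TPM in control, a log2 fold change of -0.21 (SE 0.14). The nuclease gene Endog had one of -0.32 (SE 0.25). The caspase gene Casp6 had one of -0.68 (SE 0.92) from few reads. Of the inhibitors of apoptosis, Birc2 was at 16.7 ± 1.65 TPM in CIH and 14.97 ± 0.114 TPM in control, with a log2 fold change of 0.20 (SE 0.11), and Birc6 had one of -0.04 (SE 0.10). Again edgeR gave an adjusted p of 1.00 for all 5, so none passed.

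In the death receptor arm, the adaptor gene Fadd had 10.0 ± 1.76 TPM in CIH and 13.2 ± 1.104 TPM in control (SD, n = 3 each), and its log2 fold change was -0.35 (SE 0.22). The TNF receptor gene Tnfrsf1a had a log2 fold change of 0.17 (SE 0.13). Among genes of the p53 response, the log2 fold change was 0.40 (SE 0.23) for Tp53inp1 and 0.29 (SE 0.27) for Gadd45a. The caspase substrate gene Dffa encodes the inhibitor of the DNA-cutting nuclease of apoptosis, and Dffb the nuclease itself. Dffa and Dffb had log2 fold changes of 0.09 (SE 0.12) and 0.05 (SE 0.19). The edgeR adjusted p of these 6 was also 1.00.

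**Figure D5:**
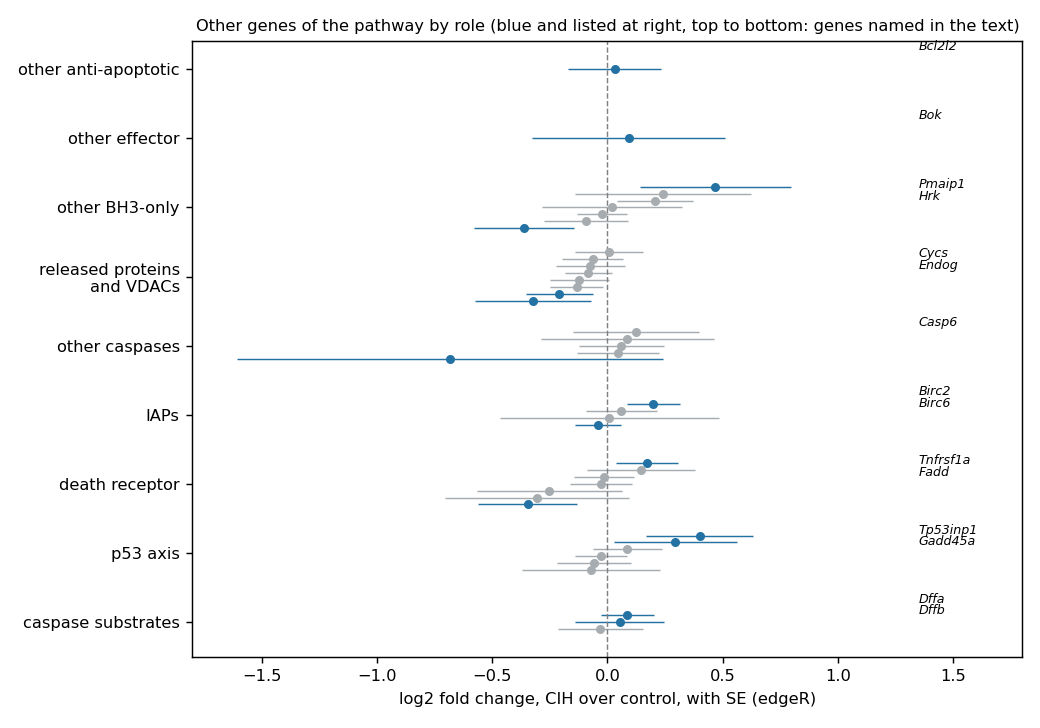
Log2 fold change of CIH over control with its SE from edgeR (x axis) for the 42 tested genes around the members, in rows by role; blue points are the genes named in the text, listed at the right of each row in the order of their points. The points lie on both sides of 0 in most rows, and 7 of the 8 genes for released proteins and VDACs lie below 0, as do 8859 of all 17935 genes tested.

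The small RNA libraries offered a second readout. In human cells miR-16 and its family and miR-34a are known to repress BCL2, miR-29 to repress MCL1 and miR-125b to repress BAK1, and in mouse miR-181a represses Bcl2. The mature sequences, from RefSeq (build GRCr8), are shown because miRNAs that share a seed (bases 2 to 8, in capitals) can bind the same sites; miR-15a-5p was also measured.
miR-15b-5p: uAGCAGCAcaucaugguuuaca
miR-16-5p: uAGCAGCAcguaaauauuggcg
miR-195-5p: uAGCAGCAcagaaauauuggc
miR-497-5p: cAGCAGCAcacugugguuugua
miR-34a-5p: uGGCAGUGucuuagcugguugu
miR-181a-5p: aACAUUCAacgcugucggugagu
miR-29a-3p: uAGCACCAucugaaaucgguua
miR-29b-3p: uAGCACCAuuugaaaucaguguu
miR-29c-3p: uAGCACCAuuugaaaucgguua
miR-125b-5p: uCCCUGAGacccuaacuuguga
miR-125a-5p: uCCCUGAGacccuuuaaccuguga

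None of the 12 miRNAs passed the edgeR test over 715 miRNA names (adjusted p from 0.969 to 0.996), where 0% of all names passed, and 0 of the 12 had an unadjusted p under 0.05, against 2.38% of all names. The groups overlapped for each of the 12, where 4.2% of all names lay higher in every CIH library, 3.5% lower, and 7.69% either way. DESeq2 called 2 of all the names and 0 of the 12. In the family with the seed AGCAGCA, miR-16-5p was the most abundant, at 12666, 13718 and 12387 CPM in CIH, against 14677, 11566 and 12384 CPM in control, a log2 fold change of 0.01 (SE 0.13). In that family miR-15a-5p had one of 0.67 (SE 0.38), miR-15b-5p 0.15 (SE 0.35), miR-195-5p -0.34 (SE 0.36) and miR-497-5p 0.14 (SE 0.27). miR-34a-5p had 9449, 6771 and 8885 CPM in CIH, against 8292, 5909 and 4808 CPM in control, a log2 fold change of 0.40 (SE 0.24). It was 0.18 without control replicate 3 and 0.66 without control replicate 1 (edgeR unadjusted p = 0.0344; adjusted p = 0.922). The log2 fold change of the 3 miR-29 names was 0.12 (SE 0.12) for miR-29a-3p, 0.04 (SE 0.18) for miR-29b-3p and 0.10 (SE 0.14) for miR-29c-3p, and that of miR-181a-5p was 0.05 (SE 0.11). The names miR-3556a and miR-3556b, whose precursors overlap those of miR-29a and miR-29c, held between 3186 and 18333 counts per library, so the split of reads between these names is uncertain.

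For miR-125b-5p, which shares its seed with miR-125a-5p, 1 library decided the value. It had 80265, 82207 and 499 counts in CIH replicates 1 to 3, against 73411, 79961 and 85061 counts in control replicates 1 to 3, a log2 fold change of -0.55 (SE 1.30) that turned to 0.03 without CIH replicate 3. miR-3588, whose precursor gene overlaps that of miR-125b in position, had 896, 1246 and 60290 counts in CIH, against 1193, 1087 and 1514 counts in control. Their reads are therefore uncertain singly, and their sums were 81161, 83453 and 60789 in CIH, against 74604, 81048 and 86575 in control. miR-125a-5p had a log2 fold change of 0.03 (SE 0.26).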

How the data were processed

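Estimated counts, TPM and FPKM per gene were deposited by the authors, per the file headers, as were whole-number counts per miRNA name. Per the submitters' processing notes, RSEM 1.2.12, HISAT2 2.2.0 and Bowtie2 2.2.5 were used with the build Rnor_6.0. What each tool did is not stated there, and the sources used here name neither annotation nor strand setting. The deposited estimated counts (16.0% not whole) were rounded. A further 6 columns of normalized small RNA values were not used. Groups came from the titles.

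CIH was tested against control with edgeR 4.0.16 in R 4.3.3 (quasi-likelihood, TMM, filterByExpr; threshold 0.05) over 17935 genes and 715 miRNAs. SE and intervals came from the F statistic. TPM ratios made from the authors' TPM were tested by exact permutation (scipy 1.17.1). Effective length is the estimated count over FPKM and total. Alternatives were RLE factors, no filter, DESeq2 1.42.0, limma 3.58.1 on log2 TPM (pseudocount 1 or 0.1), a replicate block and each library left out; for ratios, the authors' FPKM or counts. The members and lists were chosen with earlier results of these data known. Of the other pathway genes, those named have the 2 smallest p of their role, plus Cycs; some genes that this rule names are not reported here. The small RNA readout and the promoter search were added after the files were seen. The listed Trp53inp1 was matched as Tp53inp1. Figures used matplotlib 3.10.9.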

Additional observations from a re-analysis of the deposited data

How the results depend on the processing

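No member and no other pathway gene passed the threshold under any alternative run. Over all genes, DESeq2 called 10 and limma 1 with either pseudocount, against 0 by edgeR, and leaving out a library gave 0 to 1. Over all miRNAs, no filter gave 2, DESeq2 2, and leaving out a library 0 to 1. Replicate numbers gave no sign of pairing the libraries: correlations of same-numbered deviations were -0.22, -0.05 and -0.18 for RNA and 0.12, -0.15 and -0.03 for small RNA. These are deviations from means of 3 libraries that also differ in marker levels, so they cannot exclude a shared batch. The replicate block called 0 genes.

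Of the members, 6 kept their sign throughout, though Bad came to -0.007 and Bax to -0.015 with a library left out. With a library left out, Bcl2l1 ran from 0.12 to 0.17, Mcl1 from -0.046 to 0.074, Bid from -0.11 to 0.072 and Apaf1 from -0.065 to 0.14 (log2 fold change). In the same way Bcl2l2 ran from -0.14 to 0.155, Bok from -0.28 to 0.45 and Dffb from -0.038 to 0.14. Among miRNAs, miR-15b-5p ran from -0.084 to 0.55, miR-16-5p from -0.088 to 0.13, miR-497-5p from -0.044 to 0.40, miR-181a-5p from -0.074 to 0.13, miR-29b-3p from -0.10 to 0.18, miR-29c-3p from -0.013 to 0.22, miR-125b-5p from -1.04 to 0.030 and miR-125a-5p from -0.19 to 0.20. The log2 ratio of Bcl2 to Bax ran from -0.44 to 0.072, that of Bcl2l1 to Bax from 0.034 to 0.18 and that of Mcl1 to Bak1 from -0.31 to -0.18. Without a change of sign, Pmaip1 ran from 0.11 to 0.67, Hrk from -0.57 to -0.22, Cycs from -0.32 to -0.12, Endog from -0.62 to -0.17, Casp6 from -1.24 to -0.084, Birc2 from 0.11 to 0.26, Birc6 from -0.062 to -0.027, Fadd from -0.45 to -0.20, Tnfrsf1a from 0.10 to 0.22, Tp53inp1 from 0.27 to 0.64, Gadd45a from 0.16 to 0.44, Dffa from 0.017 to 0.15, miR-15a-5p from 0.51 to 0.96, miR-34a-5p from 0.18 to 0.66, miR-195-5p from -0.65 to -0.10 and miR-29a-3p from 0.011 to 0.21.

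Other sign changes were small. With limma at pseudocounts 1 and 0.1, Bid was -0.010 and -0.0099, Bok -0.081 and -0.087, and Dffb -0.066 and -0.075. Bok was -0.047 with the replicate block. miR-16-5p was -0.0022 with RLE factors, -0.058 with no filter and -0.022 with DESeq2. With no filter miR-181a-5p was -0.011, miR-29b-3p -0.024 and miR-125a-5p -0.040, which was -0.0024 with DESeq2. The cause was not tested. With 3 libraries a group the members' intervals reach from -43.5% (Bcl2) to 52.9% (Bak1).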
